A study of Mus musculus with 4 samples.

Results

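The 8 genes described here, Hmgcs1, Idi1, Fdps, Fdft1, Sqle, Cyp51, Insig1 and Srebf2, belong to the cholesterol synthesis pathway and its control, and were taken by symbol from the 28692 genes listed in the count matrices. All 8 were found, and all 8 passed the filter on low counts. None of them is an uptake gene, so uptake is represented below only by genes of a wider list.

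The study asked how age changes hematopoietic stem and progenitor cells (HSPCs) of the mouse bone marrow by droplet single-cell RNA sequencing. Lineage-negative, Sca1+, cKit+, Flt3- cells were sorted from male C57BL/6-CD45.2 mice, with no transgene or treatment in any group. Young mice were 2 to 3 months old and aged mice 17 to 18 months old. Each age was collected as a pool sequenced on platform A (HalioDX) and a pool sequenced on platform B (TGML). These pools are called young A (2 mice), young B (3 mice), aged A (3 mice) and aged B (2 mice). The pool, not the mouse or the cell, was therefore the replicate. For age and platform, p-values measure the spread between pools that is left after both terms, estimated with help from other genes. For groups of cells compared within pools, they measure the spread left after pool and group terms, again estimated with help from other genes. Groups tested against a common reference were in the same fit. Their p-values rest on a spread shared by all those groups, not on the spread of a single group between pools.

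Cholesterol is built from acetyl-CoA through mevalonate, farnesyl diphosphate and squalene. Hmgcs1 makes the precursor of mevalonate, Idi1 interconverts the isoprene units, Fdps joins them into farnesyl diphosphate, Fdft1 makes squalene, Sqle oxidises it and Cyp51 demethylates lanosterol. Srebf2 encodes the transcription factor SREBP2, which switches these genes on when membrane sterol is low, and Insig1 encodes a protein that holds the SREBP precursor back when sterol is high.

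SREBP2 binds a sterol regulatory element, usually beside boxes for partner factors, so the promoters were searched for 3 motifs. RefSeq (GRCm38.p6) gave a promoter for 5 of the 8 genes, Hmgcs1, Idi1, Insig1, Cyp51 and Srebf2, each taken as the 250 bases before the gene start. The motifs were TCACNCCAC (the sterol element), CCAAT and GGGCGG (the GC box), read on both strands, and no match overlapped another in these promoters. This exact string for the sterol element was present in 1 of the 5, Hmgcs1, and in 1.05% of 32851 mouse promoters. CCAAT was present in 5 of 5 and in 33.8% of all promoters. The GC box was present in 5 of 5 and in 32.7% of all promoters. Of 30 other sterol synthesis, control, uptake and transport genes, 24 had a promoter. The sterol string was present in 0 of these 24, CCAAT in 19 and the GC box in 20. The counts for the 5 genes include all matches of Idi1 and the CCAAT of Cyp51. Those matches lie in bases that GENCODE M21 places inside the gene. Below, motifs are in capitals, and bases that GENCODE M21 places inside the gene are left out. Stretches are printed for the earliest enzyme among the 8 genes and for the brake and the activator of the pathway. They lie at chr13:119690101-119690350 (plus strand), chr5:28071162-28071362 (plus strand) and chr15:82147019-82147180 (plus strand).
Hmgcs1: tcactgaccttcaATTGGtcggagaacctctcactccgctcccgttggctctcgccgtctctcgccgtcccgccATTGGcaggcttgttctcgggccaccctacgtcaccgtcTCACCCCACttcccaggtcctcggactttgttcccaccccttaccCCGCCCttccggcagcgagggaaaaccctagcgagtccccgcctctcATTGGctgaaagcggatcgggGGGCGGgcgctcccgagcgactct
Insig1: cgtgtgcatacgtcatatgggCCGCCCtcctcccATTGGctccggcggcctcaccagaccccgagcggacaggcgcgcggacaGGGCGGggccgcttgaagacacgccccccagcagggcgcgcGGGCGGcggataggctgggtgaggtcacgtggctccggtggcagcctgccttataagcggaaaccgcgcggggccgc
Srebf2: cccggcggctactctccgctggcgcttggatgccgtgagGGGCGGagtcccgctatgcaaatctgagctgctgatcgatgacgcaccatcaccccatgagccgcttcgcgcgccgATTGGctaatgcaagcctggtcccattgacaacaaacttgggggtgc
In the Hmgcs1 stretch the sterol element starts 137 bases before the gene start, and CCAAT, read on the minus strand, starts 237, 176 and 45 bases before it. In the Insig1 stretch CCAAT starts 216 bases before the gene start, with GC boxes at 229, 167 and 126. A match is a string of letters and was not measured as a binding site. Strings that differ from a motif were not searched for, so a missing match does not show that a sterol element is absent.

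After cells with extreme UMI numbers were dropped, 14915 of 15566 barcodes remained, with 5189 from young A, 2244 from young B, 3328 from aged A and 4154 from aged B. Median depth per cell lay between 5674 and 6719 UMIs, and 99 barcodes occurred in more than 1 pool. By the study's account, young A and aged B were sequenced to fewer reads per cell than young B and aged A. The part of this difference in the results was not tested. The free-text descriptions of young B and aged A contradict their titles and source names on age, and the latter were followed. Kit, Ly6a and Cd34 were present in every pool (61.0 to 355 CPM, UMIs of a gene per 1000000 UMIs of the pool). Flt3, which the sort should leave out, had 48.0 CPM in young A against 2.40 to 15.0 in the others. Slamf1 was higher in the aged pools (42.5 and 45.5 CPM against 9.02 and 10.3), and Cd48 lower (11.6 and 31.6 against 69.5 and 76.8). Of the markers of other cells, Ms4a1, Cd3e, Ly6g and Cdh5 stayed under 1 CPM and Col1a1 reached 1.20. The myeloid gene Cd68 had 8.85 to 12.1 CPM in every pool, and of 2 identifiers listed for Itgam, another myeloid gene, 1 had 0.421 to 1.95 CPM and the other 1.62 to 27.0, highest in aged A. The part of these cells in the results was not tested. Hemoglobin RNA stood out in young B, where Hbb-bs reached 410 CPM against at most 159 in the other pools. The listed immediate-early genes, which respond to cell handling among other stimuli, summed to 4098 CPM in aged A against 411 to 1156 in the others.

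The levels of most of the 8 genes separated the platforms and not the ages. Together they summed to 301 CPM in young A and 312 in aged A, but to 191 in young B and 162 in aged B. The CPM of the age groups did not overlap for 2 of 8 genes, beside 31.8% of all 13555 genes tested. The CPM of the platforms did not overlap for 6 of 8, each higher on platform A, beside 44.4% of all genes in that direction.

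Hmgcs1, the first enzyme, had 27.9 CPM in young A and 27.7 in aged A. It had 6.34 CPM in young B and 4.87 in aged B. Both platform A pools were far above both platform B pools, and within a platform the ages were close. Idi1 had 39.6 and 46.4 CPM in young A and aged A and 15.1 and 13.0 in young B and aged B. It showed the same order, with no overlap of the platforms. Sqle, the oxidase of squalene, had 37.7 and 34.1 CPM in young A and aged A and 17.5 and 16.4 in young B and aged B. Cyp51 had 25.5 and 22.4 CPM in young A and aged A and 11.8 and 14.7 in young B and aged B. For these enzymes too, each platform A pool lay above each platform B pool.

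Fdps and Fdft1, the enzymes on either side of farnesyl diphosphate, had another pattern. Fdps had 55.0 and 56.3 CPM in young A and young B and 49.4 and 40.8 in aged A and aged B. Both aged pools were lower than both young pools, and the platforms overlapped. Fdft1 had 21.8 and 18.8 CPM in young A and young B and 24.2 and 24.1 in aged A and aged B. Here both aged pools were higher, and the platforms overlapped again. Ages that do not overlap were common, with 31.8% of all genes, so this order does not set these genes apart.

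Of the control genes, Insig1 had 29.4 and 14.3 CPM in young A and young B and 48.9 and 17.6 in aged A and aged B. Aged A was the highest, and the aged pool was above the young pool on each platform. Srebf2 had 64.3 and 50.8 CPM in young A and young B and 59.3 and 30.6 in aged A and aged B. Aged B was well below the other 3. A sum over a pool cannot tell fewer cells with a transcript from less transcript per cell.

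**Figure D1:**
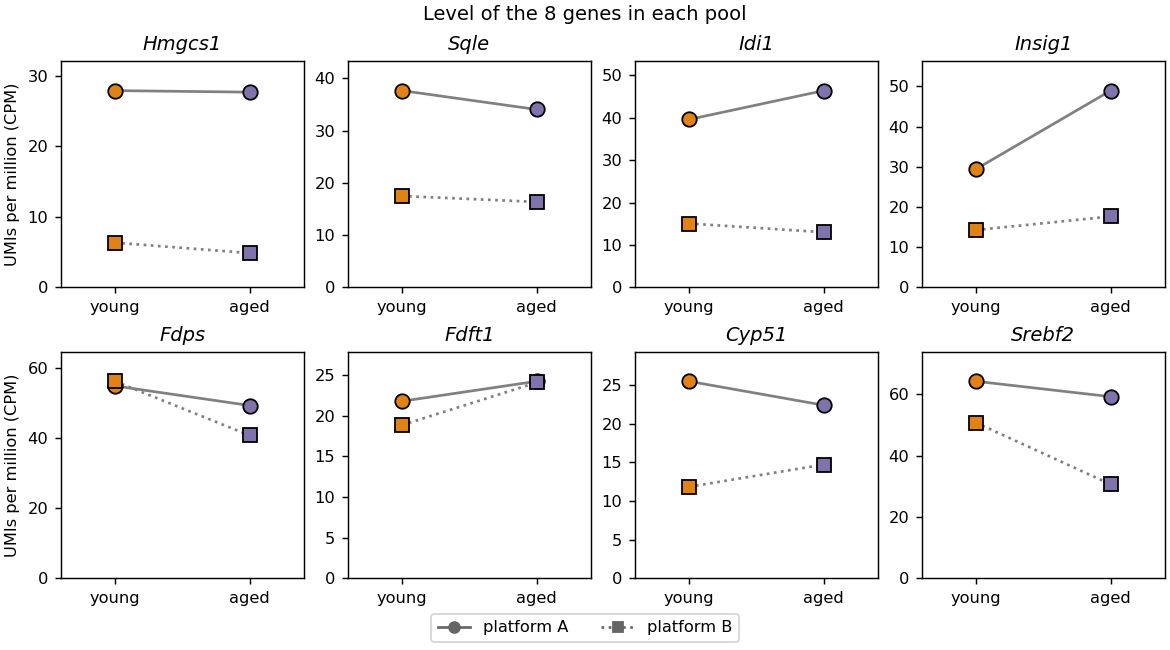
Level of each of the 8 genes, in CPM on a linear axis from 0, in the young (orange) and aged (purple) pools, with a line joining the pools of platform A (circles, solid) or B (squares, dotted). Each point is 1 pool. Hmgcs1, Sqle, Idi1, Insig1, Cyp51 and Srebf2 are higher in both platform A pools than in both platform B pools, whereas Fdps and Fdft1 are not.

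Between ages, none of the 8 genes passed the threshold. The test was edgeR's quasi-likelihood test on summed counts, blocked by platform and adjusted by Benjamini-Hochberg over 13555 genes, with a threshold of 0.05. It called 0 of 8 genes, beside 2.03% of all genes. Of the 8, 1 (Insig1) had an unadjusted p under 0.05, as did 2175 of all 13555 genes. DESeq2 also called 0 of 8. The aged minus young log2 fold change of Insig1 was 0.47 ± 0.17 (SE, n = 2 pools an age) with an edgeR adjusted p of 0.280. Srebf2 gave -0.47 ± 0.19 with an edgeR adjusted p of 0.315, and Fdps -0.36 ± 0.16 with an adjusted p of 0.368. The factor and its brake thus had estimates of opposite sign, and neither was separated from 0 by this test. The other 5 genes lay between -0.24 (Hmgcs1) and 0.20 (Fdft1), with edgeR adjusted p from 0.630 to 0.995. The median over the 8 genes was -0.11, against 0.01 over all genes tested.

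Age calls in the wider pathway were few and depended on the method. Lists of sterol and lipid genes, members left out, held 44 genes, all tested. EdgeR called 0 of the 44 by age. An unadjusted p under 0.05 was common, with 2175 of all 13555 genes tested, and 6 of the 44 had one. Of these, Vldlr (log2 1.24 ± 0.24), Nr1h3 (1.90 ± 0.37), Scd1 (1.85 ± 0.33), Fads1 (0.74 ± 0.16) and Fads2 (0.92 ± 0.29) were higher in aged pools. Npc1 was lower (-0.63 ± 0.18). Their edgeR adjusted p ran from 0.0762 (Scd1) to 0.214 (Fads2), with 0.0863 for the receptor Vldlr. Nr1h3 and Scd1 had at most 5.71 and 4.47 CPM in any pool. DESeq2 called 2 of the 44, among 543 genes in all. EdgeR called 3 with no filter on low counts, among 774 genes in all, and 1 in cells thinned to 3000 UMIs, among 355. In cells on no marker list (defined below), edgeR called 0 of 8 genes, beside 3.23% of the 12862 genes tested there. An unadjusted p under 0.05 was found for 1 of the 8 and for 1984 of the 12862. There the estimate for Srebf2 was -0.59 ± 0.18, with an edgeR adjusted p of 0.179.

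Between platforms, 3 of the 8 genes were higher on platform A, beside 7.44% of all genes called higher there. This comparison was added after the data were seen, and it takes the platform term of the same edgeR fit. Hmgcs1 was 4.19-fold higher on platform A (log2 2.07 ± 0.19, adjusted p 0.0116). Idi1 was higher by 1.36 ± 0.17 on the log2 scale (adjusted p 0.0200), and Insig1 by 1.0 ± 0.17 (adjusted p 0.0355). The log2(CPM + 1) differences within an age were 1.98 in young and 2.29 in aged pools for Hmgcs1. They were 1.34 and 1.76 for Idi1 and 0.99 and 1.42 for Insig1. Sqle, at 0.82 ± 0.17, had an edgeR adjusted p of 0.0513. Cyp51 gave 0.60 ± 0.22 (adjusted p 0.175) and Srebf2 0.39 ± 0.19 (adjusted p 0.244).

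Fdps and Fdft1 did not pass in the edgeR platform term, with -0.14 ± 0.16 (adjusted p 0.599) and -0.15 ± 0.18 (adjusted p 0.614). Their sign depended on scaling and became positive, at 0.12 and 0.11, with library totals in place of TMM factors, which also moved the median of all genes from 0.04 to 0.30. The median over the 8 genes was 0.71 with TMM. The platform calls were lost in fits without 1 pool, whichever of the 4 pools was left out. Those fits leave 1 pool on a platform and have no age term, so age and platform are mixed in them. Hmgcs1 kept a log2 difference of 1.89 to 2.24 there. The platform, the facility that ran it and the mice of its pools cannot be told apart in this design.

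Some genes around the 8 differed between platforms as well, but the wider lists as a whole did not shift. Of the 44 other list genes, 8 were called higher on platform A and 0 lower, beside 7.44% and 0.162% of all genes. Among them were the SREBP factor Srebf1 (log2 1.22), its escort Scap (1.10) and the protease Mbtps1 (1.20), the sterol enzymes Lbr (1.48) and Msmo1 (1.18), and Acly (0.96), which makes acetyl-CoA in the cytosol. Of the 6 mevalonate genes outside the 8, edgeR called 0, with 0 at an unadjusted p under 0.05. By sign alone, 22 of the 44 genes were higher on platform A and 22 lower. The median over the 44 genes was 0.02 against 0.04 over all genes tested. Immediate-early RNA was highest in aged A, as given above, and its part in these differences was not tested. In cells on no marker list, 4 of 8 genes were called higher on platform A, Sqle included (0.84 ± 0.19, edgeR adjusted p 0.0434), beside 8.78% of genes.

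**Figure D2:**
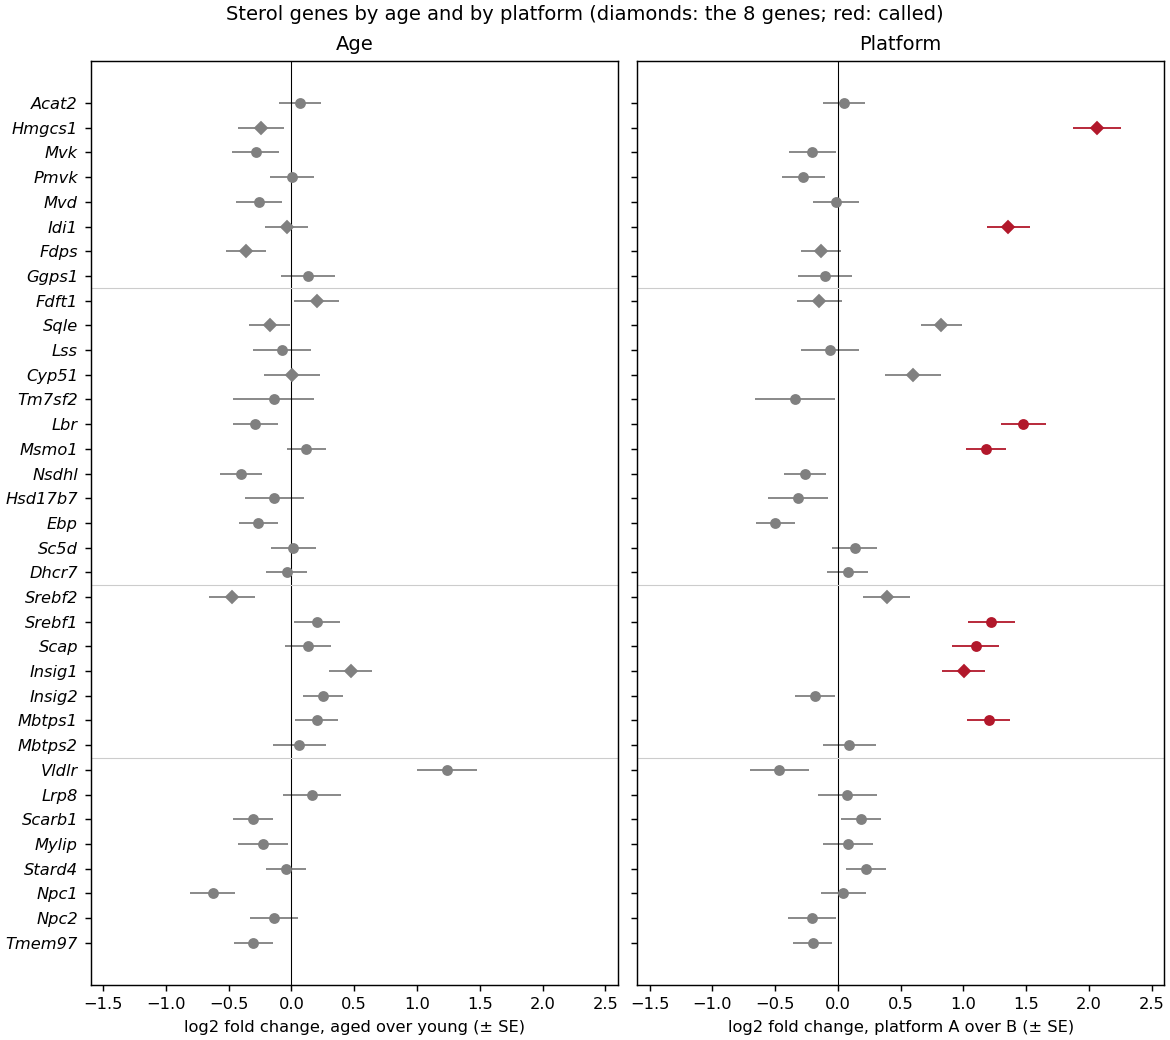
Log2 fold change (± SE from the edgeR fit) of mevalonate, squalene and sterol, SREBP control and uptake and transport genes, top to bottom. Aged over young is on the left and platform A over B on the right. Diamonds mark the 8 genes and red marks an adjusted p under 0.05. No gene is red by age, while Hmgcs1, at 2.07, is farthest to the right by platform.

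The 8 genes went together from cell to cell. To compare cells at equal depth, each was thinned to 3000 UMIs, which left out 230 shallower cells and kept 14685. The 8 genes then summed to a mean of 0.957 UMIs per cell in young A and 0.966 in aged A. The mean was 0.55 in young B and 0.489 in aged B. Many cells held none of these UMIs, as 45.0% and 42.4% of cells in young A and aged A and 60.7% and 63.1% in young B and aged B had 0. The highest cell had 16.

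For each gene in turn, cells with at least 3 thinned UMIs of the other 7 were compared with cells with 0, so that the gene tested was not used to choose the cells. All 8 genes were called higher by edgeR in the cells rich in the other 7, and each was higher in all 4 pools. On platform B some of these rises rest on few UMIs, such as 7 of Hmgcs1 in young B and 6 in aged B. Of all genes tested, the share called higher was 0.368% with Hmgcs1 held out, 0.428% with Sqle, 0.373% with Idi1, 0.421% with Insig1, 0.66% with Fdps, 0.428% with Fdft1, 0.446% with Cyp51 and 0.452% with Srebf2. Idi1 rose by 1.61 ± 0.11 on the log2 scale (edgeR adjusted p 3.3e-14), from 29.5 to 100.1 CPM in young A and from 11.2 to 45.6 in aged B. Hmgcs1 rose by 1.54 ± 0.14 and Cyp51 by 1.51 ± 0.14. Sqle rose by 1.37 ± 0.12, Fdps by 1.37 ± 0.10, Insig1 by 1.35 ± 0.12 and Fdft1 by 1.33 ± 0.15. The size of a rise could differ between pools. Fdft1 went from 14.6 to 52.0 CPM in young A but from 16.9 to 24.7 in young B. Fdps and Fdft1, which did not separate the platforms, thus moved with the others between cells.

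In the fit over all pools Srebf2 differed least, with 0.46 ± 0.11 (edgeR adjusted p 0.0121). It went from 60.0 to 82.9 CPM in young A, 48.9 to 71.5 in young B, 57.3 to 78.3 in aged A and 29.4 to 47.9 in aged B. Its call was lost without young A (0.49, adjusted p 0.251) and without aged A (0.49, adjusted p 0.0752), with another thinning seed (0.28, adjusted p 0.434), and with the cut on the other 7 genes set at 20% of cells (0.19, adjusted p 0.422). The other 7 genes were called at that cut too, by 0.81 to 1.05. The calls of the other 7 genes held without any 1 pool. The order of sizes did not hold in each pool. In aged B, Fdft1 (23.5 to 33.8 CPM) and Insig1 (18.2 to 27.6) rose by less, relative to their level, than Srebf2.

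**Figure D3:**
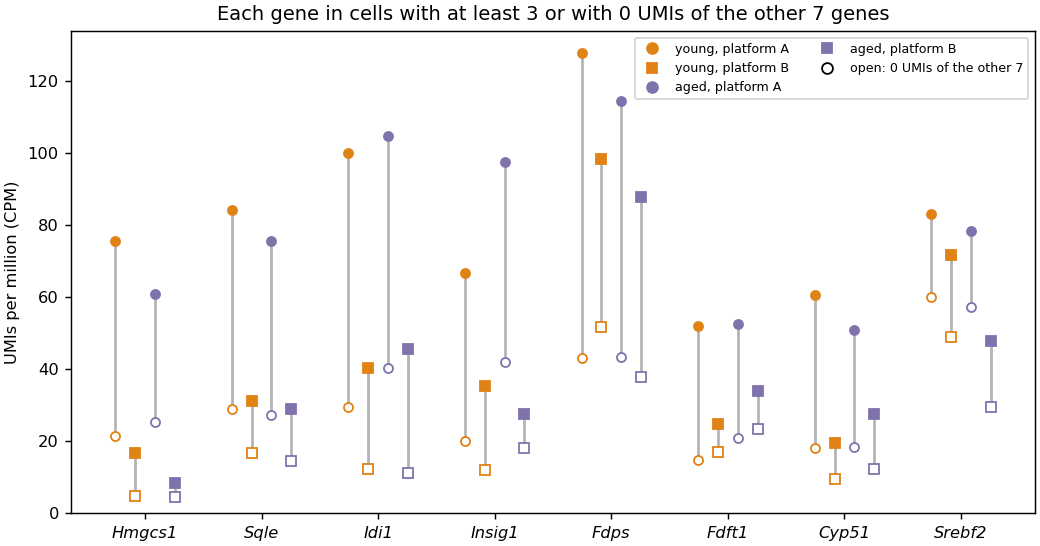
CPM of each gene, on a linear axis from 0, in cells with at least 3 (filled) or 0 (open) UMIs of the other 7 genes, joined for each pool. Colour gives age and shape gives platform. The filled symbol is above the open symbol for all 8 genes in all 4 pools. The smallest log2 change in the fit over all pools, 0.46, is that of Srebf2.

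Cells with at least 3 UMIs of all 8 genes, called high cells below, were more frequent on platform A. They made up 9.19% of young A (exact 95% binomial interval 8.42 to 10.0) and 8.63% of aged A (7.67 to 9.66). They made up 2.83% of young B (2.17 to 3.61) and 2.31% of aged B (1.88 to 2.82). The intervals cover counting error only, and those of the ages overlapped on each platform while those of the platforms did not. High cells were not deeper than cells with 0 UMIs, with median depths of 5473 to 6506 UMIs and 5760 to 6618.

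Apart from the 8 genes, which chose these cells and were not tested, edgeR called 35 of 11416 genes higher (0.307%) and 96 lower (0.841%) in 907 high cells than in 7622 cells with 0 UMIs. Of the 44 other list genes, 16 rose and 0 fell. Among mevalonate genes 5 of 6 rose, including Mvd, which decarboxylates mevalonate diphosphate (1.3 ± 0.19, edgeR adjusted p 3.2e-05). The exception was Ggps1, which leads to geranylgeranyl diphosphate (-0.04 ± 0.19). Among squalene and sterol genes 7 of 10 rose. Msmo1, the C4-methyl oxidase after Cyp51, rose by 1.65 ± 0.11, from 30.7 to 126 CPM in young A and from 14.9 to 42.6 in young B. Dhcr7 rose by 0.96 ± 0.11 and Lss, the cyclase that makes lanosterol, by 1.3 ± 0.25.

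Of the 9 genes of the uptake and transport list, 3 rose. They included Stard4, a sterol carrier (0.67 ± 0.11), and Tmem97 (0.51 ± 0.11), while Vldlr had 0.00 ± 0.15. EdgeR and DESeq2 each called 0 of the 5 other SREBP control genes, with 0 at an unadjusted p under 0.05 in edgeR, and Scap and Srebf1 had 0.19 ± 0.16 and 0.22 ± 0.18. The tools also called 0 of 5 efflux and storage genes, with 0 at an unadjusted p under 0.05 in edgeR, among them the cholesterol exporters Abca1 (-0.56 ± 0.38) and Abcg1 (-0.23 ± 0.15). Of 9 fatty acid genes 1 rose, the desaturase Scd2 (0.51 ± 0.11), and the synthase Fasn had 0.49 ± 0.18 with an adjusted p of 0.331. The median over the 44 genes was 0.21, against -0.01 over all genes tested.

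**Figure D4:**
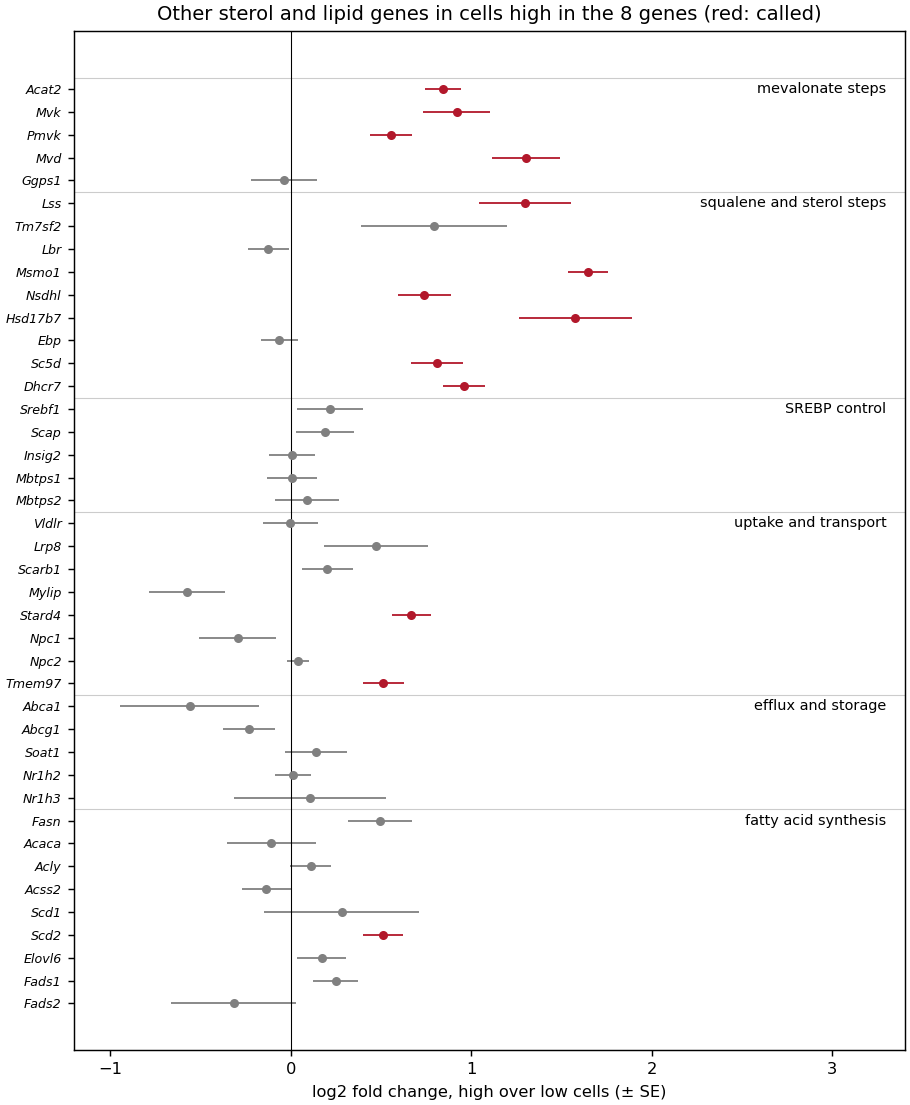
Log2 fold change (± SE, edgeR) of 41 other sterol and lipid genes in cells high in the 8 genes over cells with 0 of their UMIs, by list. Red marks an adjusted p under 0.05. The red points are 13 genes above 0, mostly enzymes, and the SREBP control and efflux lists hold none.

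Further genes were named by size among those that moved the same way in all 4 pools. Irf8, a factor of monocyte and dendritic cell development, rose by 1.90 ± 0.19, and Aif1, a gene of macrophages, by 1.51 ± 0.31. Irf8 went from 14.0 to 43.5 CPM in young A and from 10.4 to 73.9 in young B, which had 62 high cells. It went from 7.35 to 37.1 CPM in aged A and only from 5.02 to 6.61 in aged B. Aif1 was not stable and gave -0.10 (edgeR adjusted p 0.980) when the thinning was drawn with another seed, and Irf8 then gave 0.94 (adjusted p 0.00940). Aacs, which makes acetoacetyl-CoA, rose by 1.02 ± 0.18. Mvk, mevalonate kinase, rose by 0.92 ± 0.19 and is 1 of the 5 mevalonate genes counted above. The largest decreases were in genes of other blood cells. They were the basophil genes Cd200r3 (-4.81) and Fcer1a (-3.51), hemoglobin Hba-a2 (-4.59), and the plasma cell genes Iglc2 (-3.90) and Jchain (-3.71). Jchain had 8.30 against 113 CPM in young A and 87.5 against 948 in aged A. Cd200r3 had 0 UMIs in the high cells of 3 of 4 pools, so that its fitted value is not a measured fold, and it ran from -8.46 without young A to -1.36 with high cells cut at 20%. Iglc2 had -5.68 without aged A. Fcer1a had -0.61 with another seed (adjusted p 0.623), and Lss (0.88) and Mvk (0.44) were not called with it.

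These counts moved with the cells used. Without young A, 66 genes were called in all, of which 10 were other list genes, and Lss, Mvk, Aacs and Aif1 were no longer called. Without aged A 74 genes were called, and without aged B 303. In cells on no marker list, 29 genes (0.273%) were called, of which 9 were other list genes. Msmo1 (1.65) was among them.

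To see where the 8 genes stood in primed and cycling cells, cells were grouped by 10 marker lists, none of which holds a member. A cell joined a group when its thinned UMIs on the list reached a cut that at most 5% of cells reach and it met no other list. The 10051 cells on no list were the reference. The mast cell and basophil group and the immediate-early group had under 10 cells in a pool (4 in aged B and 1 in young B). They were not tested at this cut. A group is a range of a score. The cut for the erythroid list was 3 UMIs, with 190 of the cells at the cut and 996 just below it. The cut for the lymphoid list was 2 UMIs. Gata3 gave most of the CPM of that list, from 41.6 of 62.1 in young B to 47.0 of 49.3 in aged B.

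The erythroid-like group (397 cells) had less RNA of both control genes. Insig1 had 11.9 CPM in young A, 2.02 in young B, 17.7 in aged A and 16.9 in aged B, against 33.7, 15.8, 52.4 and 18.5 in cells on no list. It was lower in all 4 pools, by little in aged B. The group had 54 cells in young B, so the low values there rest on few UMIs. Insig1 fell by 1.27 on the log2 scale (SE 0.27, edgeR adjusted p 0.000197). Srebf2 had 39.3, 8.06, 35.4 and 18.8 CPM in the same order of pools, against 73.9, 55.9, 60.5 and 31.3. It fell by 0.91 (SE 0.17, edgeR adjusted p 4.9e-05), and Cyp51 fell by 0.56 (SE 0.23, adjusted p 0.0491). The other 5 genes lay between -0.40 and 0.08. So 3 of 8 genes fell and 0 rose, beside 18.7% and 21.2% of all 8781 genes tested. At a stricter cut that at most 2% of cells reach, 6 of 8 fell, with Insig1 at -2.01, Srebf2 at -1.37, Fdft1 at -1.08, Hmgcs1 at -1.04, Cyp51 at -0.67 and Idi1 at -0.58, beside 28.5% of genes called lower. The call of Cyp51 was lost without young A (-0.23), aged A (-0.60) or aged B (-0.63), and in DESeq2 (-0.55).

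In cells high in mitosis genes (533 cells), 4 of 8 genes fell and 0 rose, beside 18.8% and 19.3% of genes. Sqle fell by 0.72 (SE 0.19, edgeR adjusted p 0.00163), Insig1 by 0.67 (SE 0.19), Cyp51 by 0.65 (SE 0.18) and Idi1 by 0.39 (SE 0.15). Sqle had 24.0 CPM in young A, 16.0 in young B, 22.5 in aged A and 8.67 in aged B, against 40.7, 18.5, 35.2 and 16.8 in cells on no list, and so was lower in all 4 pools. The others were not. Idi1 was lower on platform A but higher on platform B (16.0 against 15.2 CPM in young B and 15.0 against 13.6 in aged B). Insig1 (19.0 against 15.8 CPM) and, by less, Cyp51 were higher in young B and lower in the other 3 pools. At the cut of 2% Insig1 (-0.43), Cyp51 (-0.47) and Idi1 (-0.41) lost their calls. Without young A only Sqle was still called, and Idi1 was also lost without aged A (-0.42). DESeq2 called 2 of 8, and its share of all genes is not given here. Median depth before thinning was 11537 UMIs in this group and 5999 in cells on no list, and its part in the differences was not tested.

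In cells high in DNA replication genes (465 cells), 2 genes rose and 2 fell, beside 19.7% and 18.8% of genes. Fdps rose by 0.58 (SE 0.12, edgeR adjusted p 0.000173), with 75.9 CPM in young A, 88.3 in young B, 56.7 in aged A and 72.6 in aged B, against 53.8, 52.7, 49.4 and 38.4 in cells on no list. It was higher in all 4 pools. Cyp51 rose by 0.52 (SE 0.16, adjusted p 0.00839). Insig1 fell by 0.59 (SE 0.20, adjusted p 0.0173) and Srebf2 fell by 0.37 (SE 0.14, adjusted p 0.0292). Cyp51 and Srebf2 lost their calls without young A (0.49 and -0.14), and Cyp51 also without aged A (0.49). DESeq2 did not call Insig1 (-0.66) or Srebf2 (-0.32). At the cut of 2% Cyp51 (0.42, adjusted p 0.180) and Insig1 (-0.59, adjusted p 0.0754) lost their edgeR calls. At 10% Cyp51 (0.27, adjusted p 0.199), Insig1 (-0.33, adjusted p 0.130) and Srebf2 (-0.29, adjusted p 0.0720) did. The replication and mitosis groups were not tested against each other. Median depth was 9775 UMIs in this group.

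The neutrophil-like group (388 cells) took 206 of its cells from aged B. Over all cells of aged B, Prtn3 gave 1231 of the 1444 CPM of the list. Mpo (72.3 CPM), Elane (49.7) and Ctsg (73.6) were lower there than in any other pool. How far Prtn3 alone chose the group was not tested. In this group Fdps rose by 0.41 (SE 0.15, edgeR adjusted p 0.0434), and 0 of 8 fell, beside 12.3% and 7.19% of genes. For 8 genes, these counts are close to the shares of all genes. The call of Fdps was lost without young A (0.46), young B (0.39) or aged A (0.28), and in DESeq2 (0.42). At the cut of 2% the 147 cells left gave 7 of 8 genes called. Young B and aged B held 19 and 21 of these cells, so low levels there rest on few UMIs. Fdps was higher by 0.92 ± 0.18, while Insig1 (-1.31), Cyp51 (-1.08), Fdft1 (-1.02), Idi1 (-0.98), Srebf2 (-0.96) and Sqle (-0.70) were lower, beside 22.3% of genes called higher and 26.1% lower. Hmgcs1 had -0.12 ± 0.37. The cells at the higher cut thus had more Fdps and less of 6 others.

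The remaining groups gave no call at the main cut. EdgeR called 0 of 8 genes in the HSC-like group (464 cells, 0 at an unadjusted p under 0.05), the lymphoid-like group (157 cells, 0), the interferon response group (352 cells, 1) and the megakaryocyte-like group (303 cells, 2). DESeq2 also called 0 of 8 in each. The shares of all genes called were 1.62%, 0.592%, 1.34% and 16.3%. At the cut of 2%, megakaryocyte-like cells had lower Insig1 (-1.36) and Srebf2 (-0.75) and higher Fdps (0.44), beside 19.9% of genes called lower and 14.3% higher. The mast cell and basophil group (126 cells, 13 of them in aged B) could be tested at that cut. There Srebf2 was lower (-1.02 ± 0.25, edgeR adjusted p 0.00148), and no other member was called. Of all genes, 12.7% were called lower and 10.6% higher in that group.

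**Figure D5:**
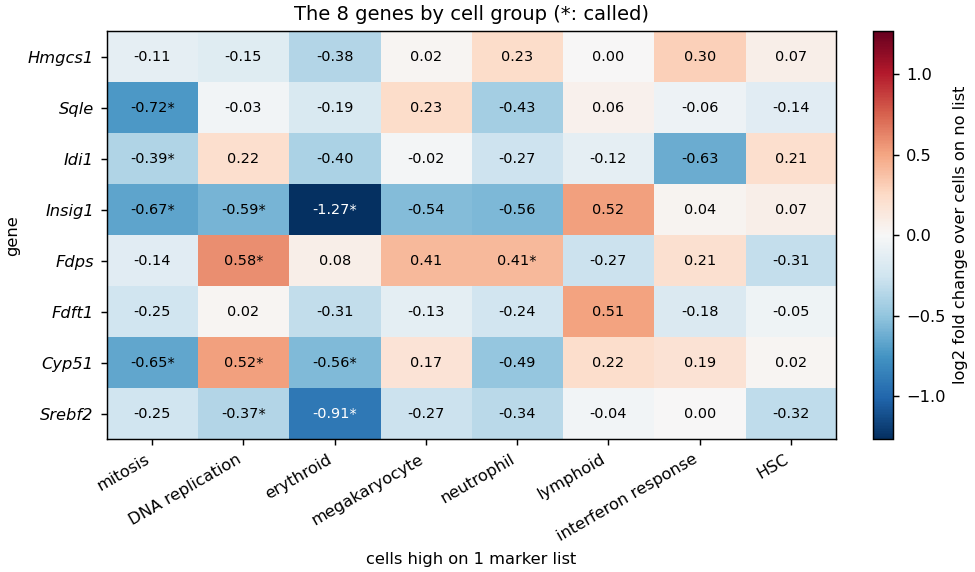
Log2 fold change (edgeR, pool as a block) of the 8 genes, in rows, in each group of cells over cells on no list, in columns. Blue is lower, red is higher and a star marks an adjusted p under 0.05. Insig1 in erythroid-like cells, at -1.27, is the darkest cell, and no star falls in the megakaryocyte, lymphoid, interferon or HSC columns.

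The age difference of the 8 genes was not shown to vary with the group. Of 64 group by age terms, edgeR called 0, with 2 at an unadjusted p under 0.05, and DESeq2 called 0. The lowest edgeR adjusted p was 0.419, for Sqle in the neutrophil-like group (0.88 ± 0.46). Of all genes tested, 1.72% were called in this term for the neutrophil group, 0.421% for erythroid, 0.239% for DNA replication, 0.216% for mitosis, 0.148% for lymphoid, 0.114% for megakaryocyte, 0.0228% for HSC and 0.0114% for interferon response.

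The share of high cells lay below that of cells on no list in a few groups of platform A. No group had intervals apart from the reference in both platform A pools. The intervals cover counting error within a pool and were not a test of the groups. Other groups had higher shares with overlapping intervals, such as interferon response in aged A (15.3%) and DNA replication in young A (12.4%). Among cells on no list they made up 9.68% of young A (exact 95% interval 8.73 to 10.7) and 9.10% of aged A (7.79 to 10.6), and 2.97% of young B and 2.33% of aged B. In the erythroid-like group they made up 3.98% of young A (1.61 to 8.02) and 3.16% of aged A (0.656 to 8.95), and 1.85% of young B and 2.78% of aged B. The intervals of the group and the reference were apart in young A and overlapped in aged A. In the mitosis group, 0 of 54 cells were high in aged A, which allows a share of up to 6.60% and lies apart from cells on no list, while 6.59% of young A (3.88 to 10.3) overlapped with them. In young A, 3.45% of neutrophil-like cells were high, with an interval of 0.717 to 9.75 that overlaps. Of 333 cells on several lists in young A, 14 were high (interval 2.32% to 6.95%, apart from cells on no list), and 8.28% were in aged A (5.37 to 12.1). In the HSC-like group 13.4% of young A and 6.40% of aged A were high, with exact 95% intervals of 7.33 to 21.8 and 3.24 to 11.2 that overlap. In young B, 0 of 45 HSC-like cells were high, which allows a share of up to 7.87%. In aged A, 496 cells were in the immediate-early group and 9.48% of them were high, close to the 9.10% of cells on no list there.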

How the data were processed

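The authors deposited raw UMI counts per gene and barcode, made with Cell Ranger 2.2.0 on GRCm38 (mm10) from 10x 3' libraries. The annotation they counted against was not given in the sources used here. Gene positions are from GENCODE M21. Such 3' counts do not scale with gene length, so levels were not compared between genes. Barcodes were kept when their log UMI count lay within 2 SD of the pool's mean. No doublet caller was run, so that only this limit removes doublets. Pools held 16399999 to 36446168 UMIs after this step.

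Counts were summed per pool and group of cells and tested with edgeR 4.0.16 (TMM, filterByExpr, quasi-likelihood, R 4.3.3), with platform or pool as a block, at an adjusted p of 0.05. DESeq2 1.42.0 was an alternative. Groups needed 10 cells in every pool. The letters A and B mark the platform in the labels, and same-letter pools deviated together from the mean of each age (r = 0.576 across 13555 genes), so the pairing was kept as a block. Cells were thinned to 3000 UMIs for the cuts only. High cells had the smallest UMI number that at most 10% of cells reach.

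The 8 genes, the lists and the tests were chosen with earlier results of these data known. The rule for other names took list genes that were called and the 10 genes with the largest increase and 5 with the largest decrease in high cells among those that moved alike in all 4 pools. Some genes that it names are not reported here. Tests were tried on simulated counts. For age, edgeR recovered 86 of 96 simulated 4-fold changes, 34 of 104 simulated 2-fold changes and made 42 false calls, where DESeq2 recovered 81 and 20 and made 13. For platform, the same numbers in edgeR were 85 of 108, 28 of 92 and 44, so single calls in these fits carry more error than the threshold. They were 92 of 93, 86 of 107 and 11 for high cells, and 101 of 103, 73 of 97 and 15 for the erythroid group.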

Additional observations from a re-analysis of the deposited data

Results flagged for a closer look

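For 2 of the 8 genes the young to aged difference had opposite signs on the platforms. Idi1 was higher in the aged pool on platform A, by 0.22 on the log2(CPM + 1) scale, and lower on platform B, at -0.20. Cyp51 was lower in the aged pool on platform A, at -0.18, and higher on platform B, by 0.29. With 1 pool of each age on a platform, the difference between platforms was not tested. It also cannot be told apart from the reads per cell, which were higher in aged A and young B.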

How the results depend on the processing

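By age, 0 of the 8 genes were called under each of the 12 alternatives, although the sign of 5 of them changed. All genes called by age, 275 here, were 543 with DESeq2, 774 with no filter on low counts, 74 with library totals without TMM, 415 in cells on no list (where 275 is the value for all kept cells) and 0 with no replicate block, that is, without platform as the paired factor. Leaving out 1 pool gave 0 to 287 genes by age. Those fits have no platform term, so age and platform are mixed in them. Without young A, Hmgcs1 (1.05), Sqle (0.29) and Idi1 (0.70) turned positive by age. Without aged B, Hmgcs1 (0.52), Sqle (0.11) and Idi1 (0.57) did too. Cyp51 turned negative without young B (-0.45) and without aged A (-0.20), where Insig1 did as well (-0.17). With no replicate block Idi1 was 0.017 and Cyp51 -0.058, and this changed no call of the 8 genes. Cyp51 was -0.031 with DESeq2, -0.032 with DESeq2 size factors in edgeR, -0.0018 with no filter on low counts and -0.0035 in cells on no list. Idi1 was 0.19 in thinned cells and 0.015 with library totals. Over the fits without 1 pool, the age estimates ran from -1.65 to 1.05 for Hmgcs1, -0.61 to 0.29 for Sqle, -0.92 to 0.70 for Idi1, -0.17 to 0.97 for Insig1 and -0.45 to 0.44 for Cyp51, and the platform estimates from -0.36 to 0.089 for Fdps and -0.34 to 0.040 for Fdft1. By platform, calls over all genes, 1030 here, were 1829 with no filter on low counts and 1667 with library totals. They were lost when any 1 pool was left out, likewise for the 8 genes, in fits that have no age term. Insig1 was not called with DESeq2 size factors in edgeR (0.92), and Sqle was called under 5 alternatives. Fdps turned positive without young B (0.089) and with library totals (0.12), and Fdft1 without aged B (0.040) and with library totals (0.11). Of the 8 genes, the DNA replication group had 2 to 4 called when 1 pool was left out, 2 at a cut of 2%, 2 at 10% and 2 with DESeq2. The mitosis group had 1 to 5 when 1 pool was left out, 1 at 2% and 2 with DESeq2. The neutrophil group had 0 to 2 when 1 pool was left out, 7 at 2%, 0 at 10%, 3 when cells on several lists were kept, 0 with DESeq2 size factors and 0 with DESeq2. The erythroid group had 6 at 2%, and the megakaryocyte group 3 at 2% and 3 when cells on several lists were kept. At 2%, the DNA replication group had 12.8% of all genes called higher and 16.5% lower. The mitosis group had 11.4% and 19.5%. Shares of all genes under the other group settings are not given here, so those counts show only how the calls moved. In high cells, 66 to 303 genes were called with 1 pool left out, 29 in cells on no list and 50 with DESeq2. Other list genes called there were 10 to 16 with 1 pool left out and 9 in cells on no list. Aif1 was -0.10 with another seed. The causes were not tested. The platform comparison, library totals and DESeq2 for the group by age terms were added after seeing the data. With 2 pools an age, few changes of 2-fold were found in simulated data, so a missing call is no sign of equal levels.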
